A study of Mus musculus with 6 samples.

Results

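Ly6a, Ly6c1, Ly6c2 and Ly6e are 4 genes of the Ly6 family, small cell surface proteins that immunologists use as antigens of activated and memory lymphocytes. They were chosen by name, and all 4 had a row among the 23284 genes counted and were among the 12951 genes abundant enough to be tested. The counts come from 6 RNA sequencing libraries of T cells that were sorted by flow cytometry from lymph nodes of C3H/HeJ mice, an inbred strain. One population, of 3 libraries, was CD3+CD8+CD44+CXCR3+NKG2D+, and the population it was compared with, also of 3 libraries, was CD3+CD8+CD44+CXCR3+NKG2D-. NKG2D is an activating receptor encoded by Klrk1. Both populations were thus antigen-experienced CD8 T cells by their surface phenotype and shared every sort marker except NKG2D. Age, treatment and disease state of the mice were not among the labels used here. The series describes 3 separate mice, so the replicate number was read as the mouse.

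Ly6 proteins hold a single three-finger fold and are tied to the outer leaflet of the membrane by a glycosylphosphatidylinositol (GPI) lipid anchor. Ly6a encodes Sca-1, a marker of blood stem cells that T cells raise after activation and that interferons induce. Ly6c1 and Ly6c2 encode the forms of Ly6C, which memory CD8 T cells, plasma cells and inflammatory monocytes carry. Ly6e encodes a relative found on immature thymocytes and on many other cells, and it too is an interferon-induced gene.

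All 4 genes lie in 1 cluster on mouse chromosome 15. In the GENCODE M21 annotation of GRCm38 the protein-coding genes there run in the order Ly6e, Ly6i, Ly6a, Ly6c1 and Ly6c2. Ly6c1 and Ly6c2 are close copies, which bears on how their reads can be counted. Their coding sequences, 393 bases each without the stop codon, differed at 9 bases and were 97.71% identical, with an unbroken identical run of 188 bases. Ly6a was 81.84% identical to Ly6c1 and 81.59% to Ly6c2 over an alignment of 402 columns. Ly6e was the distant member, at 52.59% to Ly6a, 49.88% to Ly6c1 and 50.58% to Ly6c2. The first 90 coding bases of Ly6c1 and Ly6c2, which open with the signal peptide, hold 6 of the 9 differences. They are shown because reads over these bases can tell the copies apart, and capitals mark the bases that differ:
Ly6c1: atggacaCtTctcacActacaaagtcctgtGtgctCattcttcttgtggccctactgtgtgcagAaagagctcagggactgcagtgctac
Ly6c2: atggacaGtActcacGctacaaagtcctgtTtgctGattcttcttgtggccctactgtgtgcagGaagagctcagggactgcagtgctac

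The promoter windows of the copies were less alike than their coding sequences. RefSeq windows of 250 bases before to 50 bases after the transcript start were at hand for Ly6c1 and Ly6c2. They lie at chr15:75048788-75049087 and chr15:75111922-75112221 on the minus strand of GRCm38.p6. These windows were 62.28% identical over an alignment of 334 columns, and their longest identical run was 20 bases. Of the columns 208 held identical bases, 58 held differing bases and the rest were gaps, which lower the percentage. Part of the gaps comes from the window ends, since a shared run that opens the Ly6c2 window lies further inside that of Ly6c1. They are printed since the transcripts of both genes moved together in these libraries. Capitals mark only the identical runs of at least 12 bases along this alignment. Shared stretches outside those runs, such as ccaactgctata, are in lower case:
Ly6c1: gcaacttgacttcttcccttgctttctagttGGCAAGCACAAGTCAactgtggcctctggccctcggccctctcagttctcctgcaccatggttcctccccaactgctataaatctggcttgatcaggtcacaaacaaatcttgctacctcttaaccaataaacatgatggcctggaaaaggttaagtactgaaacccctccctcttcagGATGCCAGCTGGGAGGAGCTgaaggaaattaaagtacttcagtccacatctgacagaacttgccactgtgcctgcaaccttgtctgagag
Ly6c2: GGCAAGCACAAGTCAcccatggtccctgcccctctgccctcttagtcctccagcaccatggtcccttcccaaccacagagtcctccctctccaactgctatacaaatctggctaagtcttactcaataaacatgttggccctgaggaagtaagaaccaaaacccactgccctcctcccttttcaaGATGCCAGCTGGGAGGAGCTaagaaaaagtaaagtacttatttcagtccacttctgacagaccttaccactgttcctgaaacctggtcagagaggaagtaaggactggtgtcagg

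Both strands of these windows were searched for 4 short motifs, of which the 2 interferon-related ones can overlap in the letters GAA. The Runx core, TGTGGT, matched 1 time in the Ly6c2 window and 0 times in that of Ly6c1, and it was in 16.9% of 27025 promoters of the same length. The core of the interferon-stimulated response element, GAAANNGAA, is in 8.57% of these promoters, the gamma-activated site, TTCNNNGAA, in 8.47% and the T-box site, AGGTGTGA, in 1.27%. These 3 motifs matched 0 times in either window, which says only that the letters are not in these 300 bases.

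How many reads of each gene could be placed depends on such likeness, because the submitters' counts set aside reads aligned to several places. Of all 50-base windows along 1 principal transcript per gene, 36.7% for Ly6c1 and 33% for Ly6c2 recurred exactly in a transcript of another gene. For Ly6c1 252 of the 292 recurring windows were in Ly6c2 and 40 in Ly6a, and for Ly6c2 252 of 255 were in Ly6c1. The share was 10% for Ly6a, whose windows recurred in Ly6c1, Ly6i and I830127L07Rik and least in Ly6c2, and 0% for Ly6e. At 100 bases it was 15.3% for Ly6c1, 15.8% for Ly6c2 and 0% for Ly6a and Ly6e. No source used here gives the read length, so these shares describe the genes and not the reads. They were also taken from the reference genome, which is that of C57BL/6J mice, and the effect of C3H/HeJ sequence differences on the counts was not tested.

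**Figure D1:**
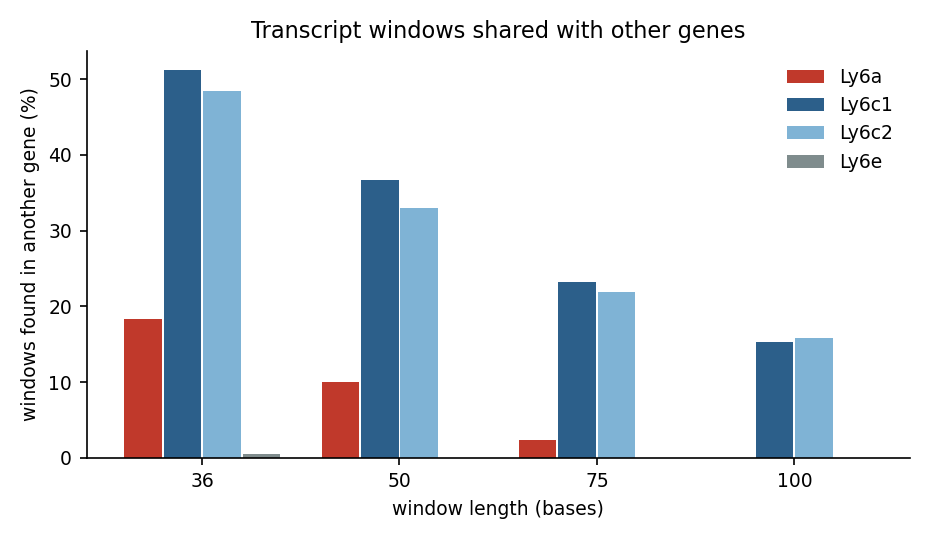
Share of windows along 1 principal transcript of each gene (y axis, %) that occur unchanged in a transcript of another gene, by window length (x axis, bases). Ly6c1 and Ly6c2 stand above Ly6a at all 4 lengths, and Ly6e is at 0.445% at 36 bases and at 0% from 50 bases on.

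Libraries held between 41168816 and 89184611 gene counts and the 4 genes had between 1084 and 44509 counts each, the lowest for Ly6a in NKG2D- library 1 and the highest for Ly6c2 in NKG2D+ library 2. Klrk1, the gene of the sort marker, had 409, 312 and 342 CPM (counts scaled to the TMM-adjusted size of their library) in NKG2D+ libraries 1, 2 and 3, against 34.5, 37.1 and 36.1 CPM in NKG2D- libraries 1, 2 and 3, which went with the labels. Reads aligned to several places made up 20.32% ± 0.626 of all counts, those set aside included, in NKG2D+ libraries and 24.03% ± 2.33 in NKG2D- libraries (SD, n = 3 each, two-sided exact permutation p = 0.1, the lowest that 3 against 3 allows). The part of this difference in the counts of Ly6c1 and Ly6c2 was not tested.

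The comparison asked whether these surface antigens differ between NKG2D+ and NKG2D- memory-phenotype CD8 T cells. Ly6a averaged 3.61-fold higher and Ly6e 1.36-fold higher in NKG2D+ cells, and every NKG2D+ library stood above every NKG2D- library for both genes. The share of all genes tested whose groups separate in this way was not counted, here or for the genes named below. Ly6c1 and Ly6c2 had log2 fold changes near 0 and overlapping groups. By edgeR's quasi-likelihood test with Benjamini-Hochberg adjustment over all genes tested, 0 of the 4 genes passed an adjusted p of 0.05, with 2, Ly6a and Ly6e, at an unadjusted p under 0.05. Of all 12951 genes tested 2731 had an unadjusted p under 0.05. Among all genes 2.02% were called, 1.65% as higher and 0.363% as lower in NKG2D+ cells. DESeq2 called Ly6a and Ly6e as higher, in a fit that called 7.03% of its genes as higher, and limma-voom called 0 of the 4. In bulk libraries such as these, more cells carrying a transcript and more transcript per cell cannot be told apart.

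**Figure D2:**
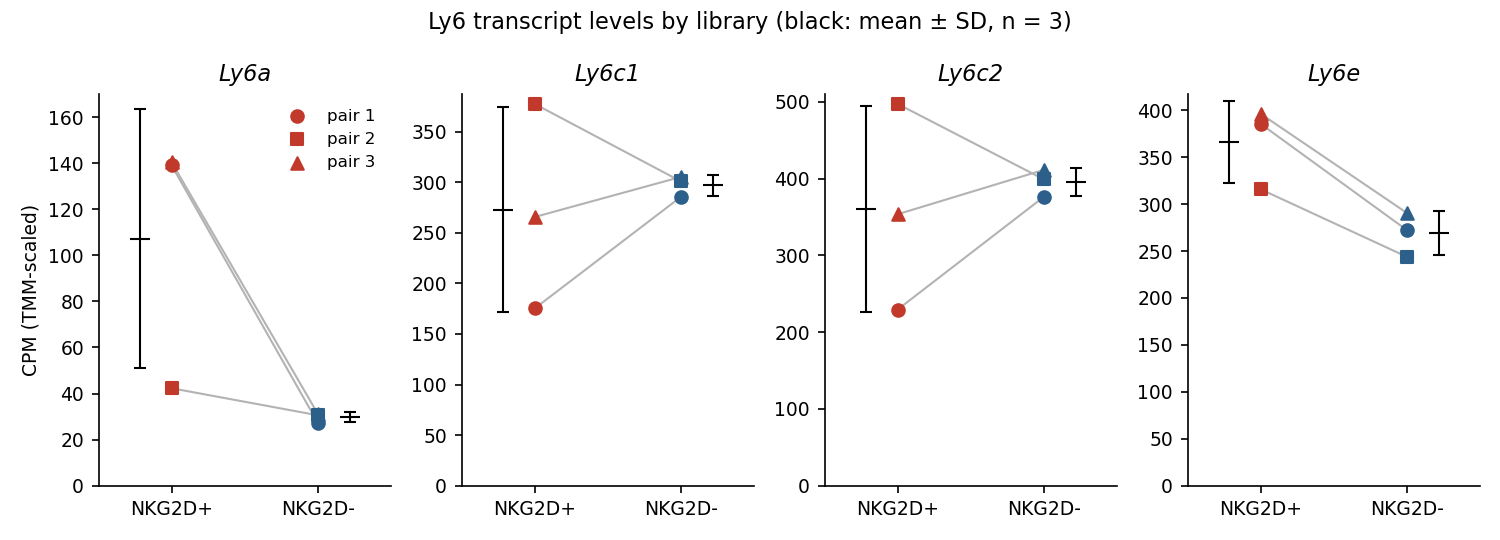
Transcript level of each gene (y axis, CPM on TMM-scaled library sizes, from 0) in the 3 NKG2D+ libraries (red) and the 3 NKG2D- libraries (blue). Symbols and grey lines join same-numbered libraries and black bars give the mean ± SD. For Ly6a and Ly6e every red point stands above every blue point, while for Ly6c1 and Ly6c2 the blue points lie within the range of the red ones.

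Ly6a had 139, 42.3 and 140.3 CPM in NKG2D+ libraries 1, 2 and 3, against 27.3, 30.6 and 31.2 CPM in NKG2D- libraries 1, 2 and 3. NKG2D+ libraries 1 and 3 were nearly equal and far above all others, and NKG2D+ library 2 was close to the NKG2D- range, at 1.35 times the highest NKG2D- library. The NKG2D+ mean was 107 ± 56.2 CPM and the NKG2D- mean 29.7 ± 2.1 CPM (SD, n = 3 each). The log2 fold change was 1.85 (SE 0.43, 95% interval 0.84 to 2.87) with an adjusted p of 0.0836 by edgeR, and the exact permutation p was 0.1 (two-sided), the lowest it can reach. Within same-numbered pairs Ly6a was 5.09, 1.38 and 4.495 times as high in the NKG2D+ library.

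Whether Ly6a was called depended on the tool and on which libraries were kept. Without NKG2D+ library 2 the log2 fold change was 2.23 (SE 0.09) with an adjusted p of 0.000166 by edgeR, where 6.86% of genes were called as higher. Without both libraries numbered 2 it was 2.26 with an adjusted p of 0.00263 by edgeR, where 2.45% were called as higher. Leaving out any other library, or both libraries numbered 1 or 3, gave adjusted p-values of 0.207 to 0.641 by edgeR. With all libraries DESeq2 gave 1.85 and an adjusted p of 0.00738. NKG2D+ libraries differed from each other in Ly6a far more than NKG2D- libraries did. The coefficient of variation (SD over mean) was 52.5% in NKG2D+ libraries, above that of 94.1% of the genes tested, and 7.07% in NKG2D- libraries, above that of 43.7%.

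Ly6e had 385.5, 316 and 396 CPM in NKG2D+ libraries 1, 2 and 3, against 272, 244 and 291 CPM in NKG2D- libraries 1, 2 and 3. As for Ly6a, libraries 1 and 3 were the highest of the NKG2D+ group and library 2 the lowest, but the gap between them was small. The NKG2D+ mean was 366 ± 43.7 CPM and the NKG2D- mean 269 ± 23.6 CPM (SD, n = 3 each), and the lowest NKG2D+ library was 1.09 times the highest NKG2D- library. The log2 fold change was 0.44 (SE 0.11, 95% interval 0.18 to 0.70) with an adjusted p of 0.0895 by edgeR, and the exact permutation p was 0.1.

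Ly6e was the steadiest of the 4 genes within pairs. Its NKG2D+ library was 1.42, 1.295 and 1.36 times as high as the NKG2D- library of the same number. With the replicate number as a block the log2 fold change was 0.44 (SE 0.06) and the adjusted p 0.0677 by edgeR. Without NKG2D+ library 2 it was 0.54 with an adjusted p of 0.0168, and DESeq2 gave an adjusted p of 0.0113 on all libraries. The coefficient of variation of Ly6e was 11.9% in NKG2D+ libraries and 8.78% in NKG2D- libraries. Over all genes tested its median was 11.9% in NKG2D+ libraries and 8.1% in NKG2D- libraries.

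**Figure D3:**
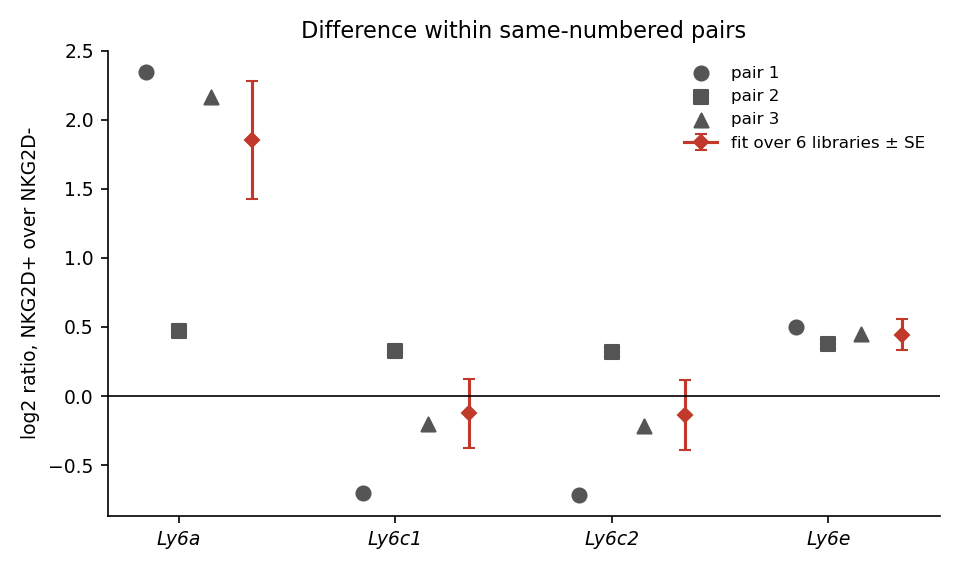
Log2 ratio of the NKG2D+ over the NKG2D- library of the same number for each gene (y axis; x axis, gene; grey symbols, pairs 1 to 3), with the log2 fold change of the fit over 6 libraries ± SE (red). Ly6a spans 0.47 to 2.35, Ly6e stays between 0.37 and 0.50, and Ly6c1 and Ly6c2 lie on both sides of 0.

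For Ly6c1 the levels were 175, 377 and 266 CPM in NKG2D+ libraries 1, 2 and 3, against 285, 301 and 305 CPM in NKG2D- libraries 1, 2 and 3. Those of Ly6c2 were 229, 497 and 353.5 CPM in NKG2D+ libraries 1, 2 and 3, against 376, 399 and 411 CPM in NKG2D- libraries 1, 2 and 3. For both copies NKG2D+ library 2 was the highest of all 6 and NKG2D+ library 1 the lowest, so that the NKG2D+ group spanned the NKG2D- group. Ly6a and Ly6e, by contrast, were lowest in library 2 among NKG2D+ libraries.

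The NKG2D+ mean of Ly6c1 was 273 ± 101 CPM and its NKG2D- mean 297 ± 10.4 CPM, and the NKG2D+ mean of Ly6c2 was 360 ± 134 CPM and its NKG2D- mean 395.5 ± 17.9 CPM (SD, n = 3 each). The log2 fold change of Ly6c1 was -0.12 (SE 0.25, adjusted p = 0.824 by edgeR) and that of Ly6c2 -0.14 (SE 0.25, adjusted p = 0.81 by edgeR), with an exact permutation p of 0.7 for each. Their 95% intervals ran from -0.72 to 0.47 and from -0.74 to 0.47, so a difference of up to 1.39-fold higher or to 0.608 times the level of NKG2D- cells lay within the interval of Ly6c1. Without NKG2D+ library 1 the direction turned, to 0.11 for both copies, and without NKG2D+ library 2 the values were -0.43 and -0.44 with adjusted p-values of 0.165 and 0.174 by edgeR.

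Ly6c1 and Ly6c2 moved as 1 in every library. Of the counts placed on either copy, Ly6c2 held 56.7%, 56.85% and 57.1% in NKG2D+ libraries 1, 2 and 3, against 56.85%, 57.01% and 57.4% in NKG2D- libraries 1, 2 and 3. The widest exact binomial 95% intervals of these shares, those of library 1, ran from 56.1% to 57.3% in NKG2D+ and from 56.25% to 57.45% in NKG2D- cells, and they cover counting error only. The mean share was 56.88% ± 0.202 in NKG2D+ libraries and 57.09% ± 0.284 in NKG2D- libraries (SD, n = 3 each, two-sided exact permutation p = 0.4). While the share varied 1.01-fold over all 6 libraries, the summed level of both copies varied 2.16-fold among NKG2D+ and 1.08-fold among NKG2D- libraries.

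**Figure D4:**
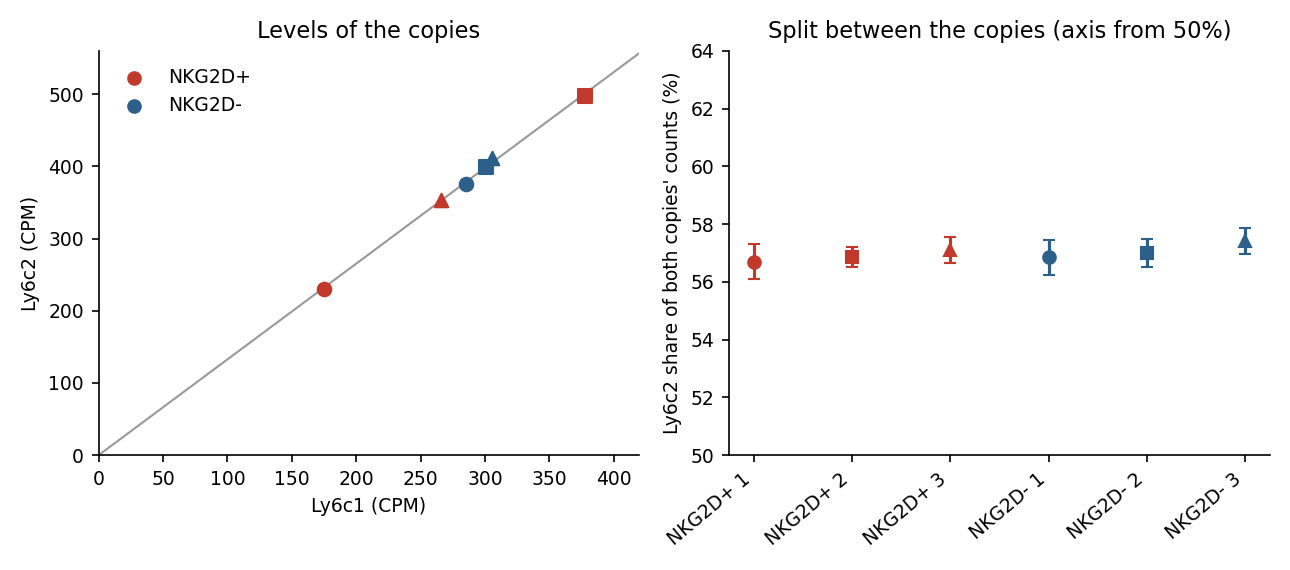
Left, Ly6c2 against Ly6c1 (both axes in CPM) in the NKG2D+ (red) and NKG2D- (blue) libraries, with a line of the overall ratio of their counts; symbols are as in the plot of levels by library. Right, share of Ly6c2 among the counts of both copies (y axis, %, drawn from 50) with exact binomial 95% intervals: all 6 shares lie between 56.7% and 57.4%.

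Counting both copies as 1 gene gave 405, 875 and 619 CPM in NKG2D+ libraries 1, 2 and 3, against 661.5, 700 and 716.5 CPM in NKG2D- libraries 1, 2 and 3. Here too the NKG2D+ libraries lay on both sides of the NKG2D- libraries. The sum does not depend on how placed reads were split between the copies, and its log2 fold change was -0.13 (SE 0.25, adjusted p = 0.817 by edgeR, exact permutation p = 0.7). The CPM of Ly6c1 and Ly6c2 over the 6 libraries had a Pearson r of 0.999 on the log2 scale. The 6 points share library and depth, and the copies share sequence.

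Ratios within a library do not depend on its scaling. The counts of Ly6a were 0.3435, 0.0483 and 0.227 times those of Ly6c1 and Ly6c2 together in NKG2D+ libraries 1, 2 and 3, against 0.0413, 0.0437 and 0.0436 in NKG2D- libraries 1, 2 and 3. All NKG2D+ libraries were above all NKG2D- libraries, library 2 by a small step, and the ratio spanned 7.11-fold among NKG2D+ and 1.06-fold among NKG2D- libraries (two-sided exact permutation p = 0.1). The ratio of Ly6a to Ly6e counts was 0.36, 0.134 and 0.354 in NKG2D+ libraries 1, 2 and 3, against 0.1, 0.125 and 0.107 in NKG2D- libraries 1, 2 and 3 (exact permutation p = 0.1). For Ly6e over Ly6c1 and Ly6c2 the groups overlapped, with 0.953, 0.361 and 0.64 in NKG2D+ libraries 1, 2 and 3 against 0.412, 0.348 and 0.406 in NKG2D- libraries 1, 2 and 3 (exact permutation p = 0.3). Over the 6 libraries the log2 CPM of Ly6a had an r of 0.94 with Ly6e and of -0.68 with Ly6c1 and with Ly6c2. These values describe 6 libraries that share their 2 groups.

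Levels of different genes can be set side by side per kilobase of transcript, here of the 1 principal GENCODE transcript used above, whose lengths are 955 bases for Ly6a, 844 for Ly6c1, 822 for Ly6c2 and 2281 for Ly6e. Per kilobase Ly6c2 averaged 438 ± 163 CPM in NKG2D+ cells, against 481 ± 21.7 CPM in NKG2D- cells (SD, n = 3 each), and Ly6c1 323 ± 120 CPM in NKG2D+ cells, against 352 ± 12.3 CPM in NKG2D- cells. Ly6e followed with 160 ± 19.1 CPM per kilobase in NKG2D+ and 118 ± 10.4 in NKG2D- cells, and Ly6a with 112 ± 58.9 CPM per kilobase in NKG2D+ and 31.1 ± 2.2 in NKG2D- cells. In NKG2D- cells no neighbours in this order overlapped over libraries. In NKG2D+ cells the ranges of Ly6c1 and Ly6c2 overlapped, as did those of Ly6e, at 138.5 to 174 CPM per kilobase, and Ly6a, at 44.3 to 147 CPM per kilobase. These levels of Ly6c1 and Ly6c2 leave out reads that fit both copies. They also rest on the transcript chosen. Per kilobase of all annotated exons of a gene joined, a length tried after seeing the data, Ly6c1 came before Ly6c2, with 163 ± 60.4 CPM in NKG2D+ cells, against 177 ± 6.2 CPM in NKG2D- cells for Ly6c1, and 131 ± 48.9 CPM in NKG2D+ cells, against 144 ± 6.52 CPM in NKG2D- cells for Ly6c2. Ly6e had 96.7 ± 11.5 CPM in NKG2D+ cells, against 71.1 ± 6.24 CPM in NKG2D- cells, and Ly6a 89 ± 46.7 CPM in NKG2D+ cells, against 24.65 ± 1.74 CPM in NKG2D- cells on this length.

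The genes most like each member were taken by the highest Pearson r of log2 CPM over the 6 libraries, among tested genes with a mean of at least 5 CPM and with the 4 members themselves left out. For Ly6a they were Gm14492, Camkk1 and Snx33, with r of 0.993, 0.992 and 0.99, and for Ly6e they were Pla2g15, Fam160b1 and Ehbp1l1, with 0.997, 0.9955 and 0.981. Dip2b and Ganc came first for both Ly6c1 (0.991 and 0.99) and Ly6c2 (0.9915 and 0.993), followed by Hipk2 for Ly6c1 (0.988) and Disc1 for Ly6c2 (0.991). The size of the differences was not alike: Gm14492 had a log2 fold change of 0.47, against 1.85 for Ly6a. The 6 points share library and depth, and these names are a description only.

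Other genes of the Ly6 and urokinase receptor family were mostly silent. Of 28 such genes with a row in the files 12 were listed at 0 counts in all 6 libraries, and 7 had enough counts to be tested. Of these 7, edgeR called 0 as higher and 1 as lower, and limma-voom called 0. DESeq2 called Ly6g5b as higher and Plaur and Lypd6b as lower, beside 1013 higher and 405 lower of the 14404 genes in its fit. The median log2 fold change of the 7 was 0.54, beside -0.01 over all genes tested. The gene that edgeR called as lower was Plaur, which encodes the urokinase receptor. It had 8.15, 11.5 and 7.33 CPM in NKG2D+ libraries 1, 2 and 3 against 18.2, 20.3 and 17.7 CPM in NKG2D- libraries 1, 2 and 3 (log2 fold change -1.05, SE 0.18, adjusted p = 0.0404 by edgeR). The groups of Plaur did not overlap. With the replicate number as a block its adjusted p was 0.0556, by limma-voom it was 0.06, and it missed 0.05 without NKG2D+ library 3 (0.135) and without NKG2D- library 1 (0.181), 2 (0.147) or 3 (0.2).

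Ly6g5b, a family member outside the chromosome 15 cluster that was singled out after its values were seen, had the largest log2 fold change among the 7 tested family genes. It had 97.7, 8.47 and 31.5 CPM in NKG2D+ libraries 1, 2 and 3, against 3.9, 2.72 and 2.36 CPM in NKG2D- libraries 1, 2 and 3. All NKG2D+ libraries were above all NKG2D- libraries, but with an 11.5-fold range among them. Its log2 fold change of 3.95 (SE 0.87) did not pass by edgeR (adjusted p = 0.0746) and passed by DESeq2 (adjusted p = 0.000584), and by edgeR it was 2.75 without NKG2D+ library 1 (adjusted p = 0.105) and 4.45 without library 2 (adjusted p = 0.0102). The cluster neighbour Ly6i, which shares windows with Ly6a, had 0.73, 0.894 and 1.13 CPM in NKG2D+ libraries 1, 2 and 3, against 0.277, 0.592 and 0.624 CPM in NKG2D- libraries 1, 2 and 3 (adjusted p = 0.234 by edgeR).

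The machinery that makes and attaches the GPI anchor was nearly level. Of 28 tested genes for it edgeR called 0, with 3 at an unadjusted p under 0.05, and DESeq2 and limma-voom also called 0. Over all genes tested 2731 of 12951 had an unadjusted p under 0.05 by edgeR. Their median log2 fold change was -0.03, beside -0.01 over all genes tested. Gpaa1, a subunit of the transamidase that attaches the anchor, had the smallest p, with 73.6 ± 4.6 CPM in NKG2D+ cells, against 60 ± 4.55 CPM in NKG2D- cells (SD, n = 3 each) and a log2 fold change of 0.30 (adjusted p = 0.118 by edgeR). Of 12 other GPI-anchored surface proteins of lymphocytes edgeR and limma-voom called 0, with 7 at an unadjusted p under 0.05 by edgeR. DESeq2 called 4 as higher and 2 as lower, beside 1013 higher and 405 lower of the 14404 genes in its fit. The median log2 fold change of these 12 genes was 0.30. Nt5e, which encodes the ectoenzyme CD73, had the smallest p, with 72 ± 11 CPM in NKG2D+ cells, against 48.6 ± 4.9 CPM in NKG2D- cells (SD, n = 3 each, log2 fold change 0.57, adjusted p = 0.0752 by edgeR).

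Since Ly6a and Ly6e are interferon-induced, a list of 39 interferon-stimulated genes was set beside them. EdgeR called 0 of the 39, with 9 at an unadjusted p under 0.05, beside 2731 of all 12951 genes tested. Limma-voom called 0 of the 39. DESeq2 called 2 as higher and 3 as lower, beside 1013 higher and 405 lower of the 14404 genes in its fit. By log2 fold change 21 of the 39 were above 0 and 18 below, and their median was 0.06, beside -0.01 over all genes tested. Samhd1, a nucleotide hydrolase that restricts viruses, had the smallest p, with 505 ± 38.9 CPM in NKG2D+ cells, against 395 ± 14.9 CPM in NKG2D- cells (SD, n = 3 each, log2 fold change 0.35, adjusted p = 0.0768 by edgeR). With the replicate number as a block Oas2, an antiviral oligoadenylate synthetase, passed as lower, with an adjusted p of 0.0364. Summed over the list, the level was 4205, 3563 and 4035 CPM in NKG2D+ libraries 1, 2 and 3, against 3499, 3599 and 3892 CPM in NKG2D- libraries 1, 2 and 3. Among NKG2D+ libraries library 2 was the lowest here as well, and the groups overlapped.

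Of 12 genes of interferon receptors and their proximal signalling edgeR and limma-voom called 0. By edgeR 3 had an unadjusted p under 0.05, beside 2731 of all 12951 genes tested. The median log2 fold change of the 12 was 0.07. Socs3, which encodes a feedback inhibitor of cytokine signalling, had the smallest p, with 59.8 ± 16.5 CPM in NKG2D+ cells, against 105 ± 14.6 CPM in NKG2D- cells (SD, n = 3 each, log2 fold change -0.82, adjusted p = 0.0917 by edgeR). It was the 1 gene of the list that DESeq2 called, as lower, in a fit that called 405 of 14404 genes as lower.

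Among 16 surface markers of memory CD8 T cells edgeR called 1 as higher and 0 as lower, with a median log2 fold change of 0.38. This was Cx3cr1, a fractalkine receptor of effector cells, with 67.9, 10.8 and 23.4 CPM in NKG2D+ libraries 1, 2 and 3 against 1.23, 0.626 and 0.374 CPM in NKG2D- libraries 1, 2 and 3 (log2 fold change 5.58, adjusted p = 0.034). Its lowest NKG2D+ library was library 2, as for Ly6a. Among 14 transcription factors of memory and effector cells edgeR called 3 as higher, Id2, Zeb2 and Prdm1, and 1 as lower, Id3, with a median of -0.18. Id2, an inhibitor of E proteins, had 846, 217 and 420 CPM in NKG2D+ libraries 1, 2 and 3 against 79.5, 74.7 and 56.6 CPM in NKG2D- libraries 1, 2 and 3 (log2 fold change 2.81, adjusted p = 0.0433). Zeb2, a transcriptional repressor of effector cells, had 2.09 (adjusted p = 0.03), Prdm1, which encodes Blimp-1, 2.01 (adjusted p = 0.0443) and Id3, a relative of Id2, -1.09 (adjusted p = 0.0498). With the replicate number as a block the adjusted p was 0.0364 for Cx3cr1 and 0.0158 for Id3, and Id2 (0.0836), Zeb2 (0.0931) and Prdm1 (0.104) missed 0.05. All 5 genes missed it by limma-voom (adjusted p 0.06 to 0.149), without NKG2D+ library 3 (0.108 to 0.1665) and without each NKG2D- library in turn (0.09655 to 0.2215).

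Other cells of the lymph node carry Ly6 transcripts too, so their markers were read beside these results. T cell markers were present in both populations, with 6 genes of the CD3 and CD8 chains with a summed level of 4925, 3238 and 3294 CPM in NKG2D+ libraries 1, 2 and 3 and 3675, 3404 and 3460 CPM in NKG2D- libraries 1, 2 and 3. The summed level of 9 B cell markers was 590, 385.5 and 430 CPM in NKG2D+ libraries 1, 2 and 3, against 109, 278.5 and 235 CPM in NKG2D- libraries 1, 2 and 3, and all 9 had higher means in NKG2D+ cells. Their sum without the most abundant, Cd22, was 443, 186 and 223 CPM in NKG2D+ libraries 1, 2 and 3, against 50.6, 166 and 120 CPM in NKG2D- libraries 1, 2 and 3. Among NKG2D+ libraries the B cell, monocyte and plasma cell sums were highest in library 1 and lowest in library 2, as was the sum of the CD3 and CD8 chains. The NK cell and fibroblastic stromal sums were instead lowest in library 1 and highest in library 2. For the fibroblastic stromal list this order rested on Col1a2, which made up 50.3% of the level. Without Col1a2 that sum was 5.02, 3.35 and 4.82 CPM in NKG2D+ libraries 1, 2 and 3, highest in library 1 and lowest in library 2. Ly6a was lowest in library 2, with libraries 1 and 3 nearly equal. The 10 monocyte and macrophage markers summed to 149 to 314 CPM in NKG2D+ and 65.5 to 84.6 CPM in NKG2D- libraries, of which Ccr2, a chemokine receptor that T cells express as well, made up 76.3%. EdgeR called Ccr2 as higher in NKG2D+ cells, and the replicate block did not. Without Ccr2 the sums ran from 31 to 50.3 CPM in NKG2D+ and from 31.3 to 34.6 CPM in NKG2D- libraries, and all 10 had higher means in NKG2D+ cells. Lyz2, a lysozyme of myeloid cells named here after its values were seen, had 11.65, 4.08 and 6.09 CPM in NKG2D+ libraries 1, 2 and 3, against 3.22, 3.65 and 3.135 CPM in NKG2D- libraries 1, 2 and 3, and DESeq2 called it as higher while edgeR did not. Its groups did not overlap. Of the 10 markers 4 stayed under 1 CPM in every library, Cd14 and Itgam among them.

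The 5 plasma cell markers summed to 55.7 to 144 CPM in NKG2D+ and 49.3 to 55.2 CPM in NKG2D- libraries, and 4 of them had higher means in NKG2D+ cells. Xbp1 made up 59.7% of this sum. Igj did not follow the order of the sum: it had 1.02, 0.76 and 3.19 CPM in NKG2D+ libraries 1, 2 and 3. In NKG2D- libraries 1, 2 and 3 Igj had 0.529, 0.896 and 3.15 CPM, so its groups overlapped. For 6 markers of plasmacytoid dendritic cells the sums were 16.3 to 40.85 CPM in NKG2D+ and 9.35 to 16 CPM in NKG2D- libraries. Spib made up 64.9% of this level, and without it the groups overlapped, at 5.116 to 10.68 CPM (NKG2D+) against 5.934 to 6.925 CPM (NKG2D-). Only 2 of the 6, Spib and Tcf4, had higher means in the NKG2D+ group. Siglech, Ccr9, Cox6a2 and Klk1 had lower means there, with Siglech at 0.724 CPM against 1.683 CPM. The 7 neutrophil markers summed to 0.894 to 2.89 CPM in NKG2D+ and 1.06 to 1.42 CPM in NKG2D- libraries. Apart from Pecam1, which T cells express and which edgeR called as lower (log2 fold change -0.47, adjusted p = 0.024, and 0.0537 with the replicate block), the endothelial markers, another site of Ly6a and Ly6c1 expression, summed to 0.791 to 1.06 CPM in NKG2D+ and 0.655 to 1.39 CPM in NKG2D- libraries, with Emcn at 0 in all 6. The 7 fibroblastic stromal markers summed to 6.69 to 9.57 CPM in NKG2D+ and 2.32 to 3.2 CPM in NKG2D- libraries, with Col1a1 and Pdgfrb called as higher by edgeR. Of these 7 markers 4 stayed under 1 CPM in every library, Col3a1 and Dcn among them. With the replicate block the adjusted p was 0.0806 for Col1a1 and 0.0459 for Pdgfrb, and limma-voom called neither. The NK cell markers without Eomes summed to 3.04 to 5.91 CPM in NKG2D+ and 1.56 to 2.99 CPM in NKG2D- libraries. The CD4 and regulatory T cell list had overlapping sums, with 56.2 to 127 CPM in NKG2D+ and 71.3 to 79.9 CPM in NKG2D- libraries. The part of any of these cells in the levels of the Ly6 genes was not tested.

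**Figure D5:**
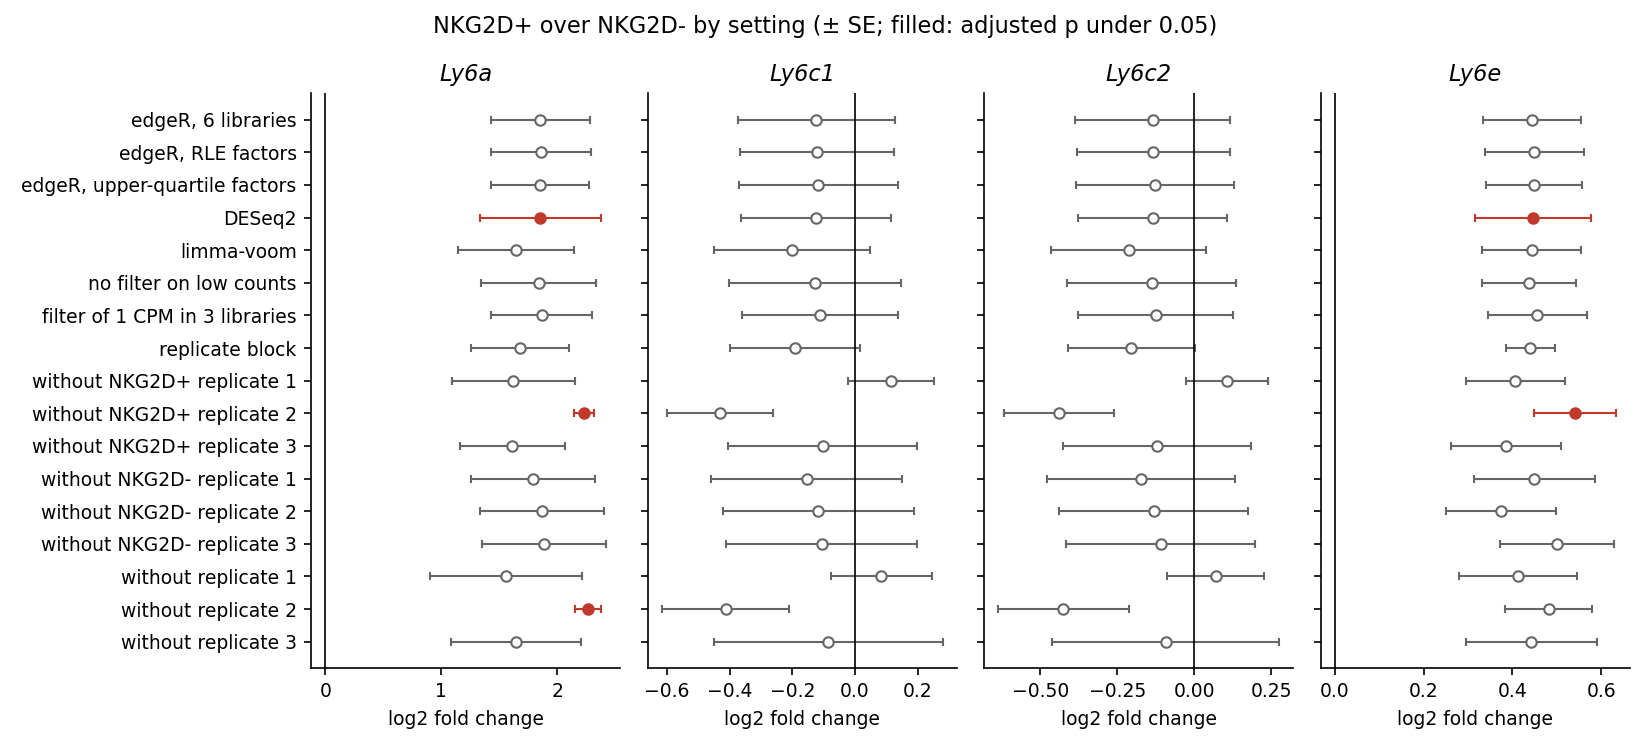
Log2 fold change of each gene, NKG2D+ over NKG2D- (x axis, ± SE), in the fit over 6 libraries and under each other setting (y axis). Filled red points have an adjusted p under 0.05: Ly6a passes under DESeq2 and in both settings without NKG2D+ library 2, Ly6e under DESeq2 and without NKG2D+ library 2 alone, and Ly6c1 and Ly6c2 change sign without NKG2D+ library 1.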

How the data were processed

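The values are whole-number counts of reads for each gene, used as the authors deposited them. Per the submitters' processing notes, the tools include CASAVA 1.8.2 and TopHat2 2.0.4 and the build is mm9; how reads were assigned to genes, with which annotation and strand setting, is not stated there. The 5 summary rows per file that name no gene were left out. As shares of all counts with these rows included, they set aside reads outside genes (14.01% to 15.87%), overlapping several genes (0.715% to 0.836%) and aligned to several places (19.71% to 26.19%). Whether a read aligned to several places was counted more than once is not stated.

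Counts were tested in R 4.3.3 with edgeR 4.0.16 (quasi-likelihood F-test, robust, TMM, filterByExpr with a minimum count of 10 and total of 15), group as the only term, and Benjamini-Hochberg adjustment over 12951 genes at 0.05. The fit was tested on simulated data. DESeq2 1.42.0, limma-voom (limma 3.58.1) and other settings were run beside it. Log2 CPM for exact tests and correlations used a prior count of 0.5. The exact tests permuted all 6 libraries without regard to the replicate number. Same-numbered libraries deviated together from their group means (r = 0.21, 0.16 and 0.26 across 12951 genes), and the series describes 3 mice, so the numbers were taken to pair libraries; no label says more about how the samples were separated, and p-values measure the spread between these libraries. No library was a copy of another: between any pair within a group the chi-square per degree of freedom was at least 40.7.

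Sequences came from GENCODE M21 transcripts (GRCm38) and RefSeq promoter windows (GRCm38.p6), where 2 of the 4 genes matched; coding parts were aligned globally with Biopython 1.88. The named genes are the 4 members, 3 look-alikes for each, Klrk1, and up to 4 called genes of each list or else the 1 with the smallest p. Members and lists were chosen with earlier results of these data known.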

Additional observations from a re-analysis of the deposited data

How the results depend on the processing

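The number of genes called among all tested, 261 with all libraries, moved more than the members did: it was 1418 with DESeq2, 83 with limma-voom and 68 with the replicate number as a block (57 of them among the 261), and between 0 (without both libraries numbered 3, where 971 genes had an unadjusted p under 0.05 by edgeR) and 1312 (without NKG2D+ library 2) when libraries were left out. Other scaling factors and filters gave 226 to 270.

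Of 16 other settings, 13 left Ly6a on the same side of the threshold, 14 left Ly6e there, and 14 kept the direction of Ly6c1, of Ly6c2 and of their sum. DESeq2 called Ly6a (1.85) and Ly6e (0.45). With libraries left out the log2 fold change ran from 1.56 to 2.26 for Ly6a, from 0.37 to 0.54 for Ly6e, from -0.43 to 0.11 for Ly6c1, from -0.44 to 0.11 for Ly6c2 and from -0.44 to 0.11 for their sum. The sign turned without NKG2D+ library 1 and without both libraries numbered 1 (0.08 for Ly6c1, 0.07 for Ly6c2 and 0.08 for the sum); the cause was not tested. With the replicate block the values were 1.68 for Ly6a (adjusted p = 0.129 by edgeR), 0.44 for Ly6e (0.0677), -0.19 for Ly6c1 (0.584) and -0.20 for Ly6c2 (0.561), and the block changed no call of the 4. The difference in the share of Ly6c2 stayed between -0.324 and -0.048 percentage points. Levels per kilobase depended on the transcript length used, and the order of Ly6c1 and Ly6c2 turned with it. The exact tests, which did not use the pairing of libraries, cannot go below 0.1.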
